A study of Mus musculus with 34 samples.

Results

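The genes described here are 5 markers of kidney tubule injury, *Lcn2*, *Havcr1*, *Clu*, *Spp1* and *Vcam1*, taken by name, with no measured value in the rule but with earlier results of these data known, out of 23509 genes counted in each of 34 mouse kidneys. All 5 passed the filter on low counts that left 15644 genes for testing. Polyadenylated RNA of whole kidneys was sequenced on postnatal day 28 (P28), with 1 library per C57BL6 mouse. Mice of 2 groups carried a kidney deletion of *Pkd2*, the gene for polycystin 2, by a Cre recombinase under the *Pkhd1* promoter acting on floxed *Pkd2* alleles (*Pkd2*-KO, spelled "Pdk2KO" in the sample labels). The PBS group (n = 11) received the phosphate-buffered saline vehicle by subcutaneous injection on P10, P11, P12 and P19, and the RGLS4326 group (n = 11) received RGLS4326 at 20 mg per kg on the same days. RGLS4326 is a short, chemically modified oligonucleotide that binds and blocks the microRNA miR-17 and its family. The UNT group (n = 12) consisted of wildtype mice of the same strain that carried no deletion and received no injection.

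Injured tubule cells raise a set of genes, some of them nearly silent in the healthy kidney, and several of their proteins are measured in urine or blood as signs of kidney damage. *Lcn2* encodes lipocalin 2 (NGAL), a secreted protein that binds iron-loaded siderophores. *Havcr1* encodes KIM-1, a surface receptor by which injured proximal tubule cells take up dead cells. *Clu* encodes clusterin, a secreted chaperone, *Spp1* encodes osteopontin, a secreted ligand of integrins, and *Vcam1* encodes an adhesion molecule that binds integrins on leukocytes. In polycystic kidneys the tubules widen into cysts while the tissue between them becomes inflamed and fibrotic and healthy tubule is lost.

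Because the treatment blocked the miR-17 family, the family and the only match to it among the 5 genes are shown first. The 6 mouse members in RefSeq (GRCm38.p6) share the same seed, bases 2 to 8, printed in capitals in 3 of them.

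mmu-miR-17-5p: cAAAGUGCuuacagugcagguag

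mmu-miR-20a-5p: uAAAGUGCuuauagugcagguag

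mmu-miR-106b-5p: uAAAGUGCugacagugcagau

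*Spp1* was the only one of the 5 genes whose longest annotated 3′UTR (GENCODE M21, GRCm38) held the 7 bases that pair with this seed. The match, in capitals, begins at base 197 of a 3′UTR of 432 bases, in the last exon. The 28 bases printed lie at chr5:104440805-104440832 on the plus strand.

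Spp1 site: aaaagcttctGCACTTTgcttctgttct

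The 3′UTRs of *Lcn2* (232 bases), *Havcr1* (965 bases), *Clu* (230 bases) and *Vcam1* (1404 bases) held no such match. Among the 14193 tested genes with an annotated 3′UTR, 3011 (21.2%) held one, a share that 1 of 5 genes is close to. A match is a description of letters and not evidence of binding.

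The libraries held between 17603122 and 54981992 reads in genes, and 0 pairs of libraries were identical. The names of the deposited tables fall into 3 runs of sample numbers, called library sets here, and each set held 3 or 4 mice of every group. The share of aligned reads that fell in no gene was 9.84% to 11.3% in UNT, 5.18% to 9.0% in PBS and 4.94% to 12.0% in RGLS4326 kidneys. In PBS against UNT kidneys *Pkd2*, the deleted gene, differed by -0.78 on the log2 scale (edgeR adjusted p = 1.25e-09), while *Pdk2*, the gene that the label spells, differed by -1.17 (edgeR adjusted p = 4.56e-12). In whole kidney RNA, fewer cells of a type and less RNA per cell cannot be told apart.

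**Figure D1:**
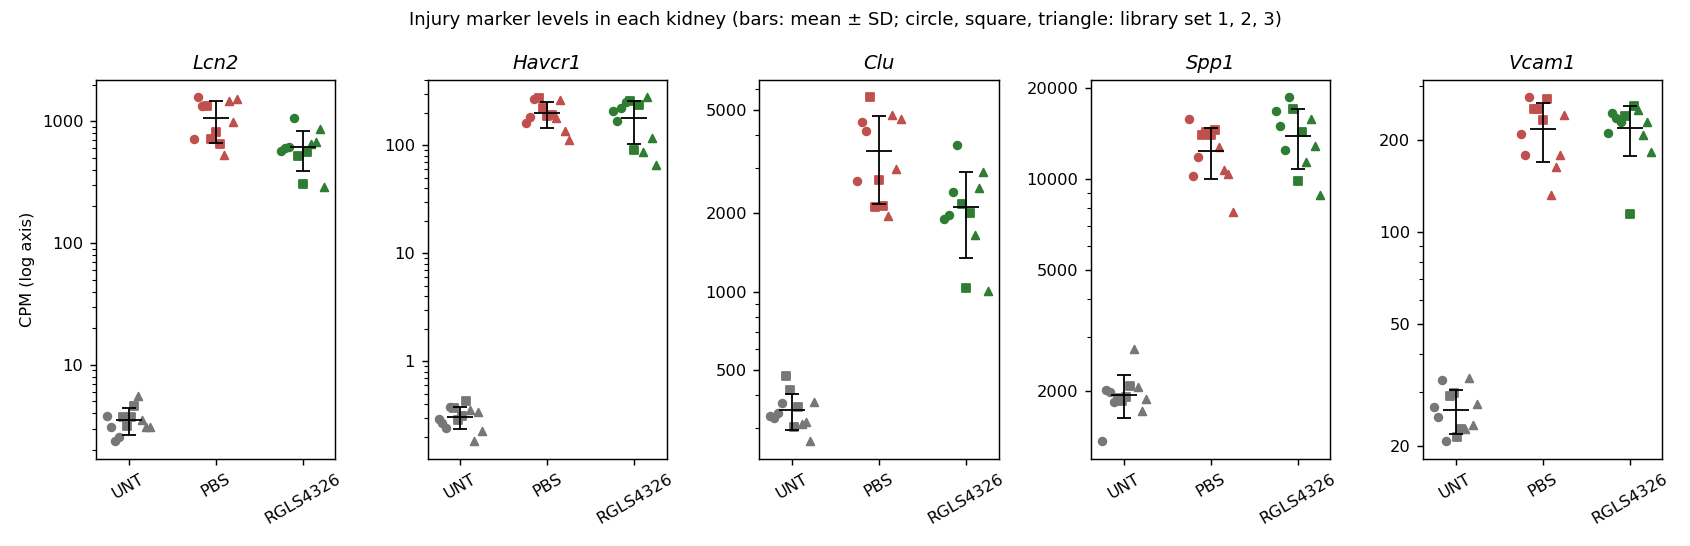
Level of each of the 5 markers in every kidney, in CPM (log axis) for UNT (12 mice), PBS (11 mice) and RGLS4326 (11 mice); points are mice, bars are mean ± SD and the marker shape gives the library set. Every PBS and RGLS4326 kidney lies above every UNT kidney in all 5 panels. In the *Lcn2* and *Clu* panels the RGLS4326 kidneys sit lower on average than the PBS kidneys, with overlapping ranges.

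The PBS group was first set against the UNT group. These groups differed in the *Pkd2* deletion and also in the injections, so the effects of the deletion and of the injections cannot be told apart. All 5 markers rose, and the order of their increases ran from *Havcr1* (about 631-fold) and *Lcn2* (about 299-fold) down to *Clu* (9.91-fold), *Vcam1* (8.25-fold) and *Spp1* (6.37-fold). In all 5 the lowest PBS kidney was above the highest UNT kidney. Over the 15644 genes tested, 43.1% were higher and 38.9% lower at an edgeR adjusted p under 0.05, and 22.7% were higher in every PBS kidney than in any UNT kidney. A higher call was therefore common in this comparison.

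*Lcn2* (ENSMUSG00000026822.14, chr2:32384633-32388252, minus strand) had the lowest, median and highest levels of 2.35, 3.33 and 5.56 CPM in UNT kidneys, the CPM being counts scaled to library size. In PBS kidneys these levels were 529, 986 and 1585 CPM. The groups were separated by a wide gap, and within PBS the kidneys themselves spread over a 3.0-fold range, with 6 mice between 529 and 986 CPM and 5 between 1331 and 1585 CPM. The means were 3.52 ± 0.875 CPM (SD, n = 12) and 1061 ± 396 CPM (SD, n = 11). This was a difference of 8.23 ± 0.26 on the log2 scale (SE, edgeR adjusted p = 7.18e-25).

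*Havcr1* (ENSMUSG00000040405.13, chr11:46735080-46779578, plus strand) was close to silent in UNT kidneys, at 0.182, 0.302 and 0.429 CPM, which corresponded to only 4 to 17 reads per library. In PBS kidneys it was at 112, 187 and 273 CPM. None of the 11 PBS kidneys came near the UNT range, and their coefficient of variation, 27.0%, was smaller than that of *Lcn2*, 37.3%. On the log2 scale *Havcr1* rose by 9.30 ± 0.29 (SE, edgeR adjusted p = 7.18e-25), with a 95% interval from 8.72 to 9.89. The few reads limit the precision of the UNT level.

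*Clu* (ENSMUSG00000022037.15, chr14:65968483-65981547, plus strand) was already abundant without the deletion, at 266, 336 and 474 CPM in UNT kidneys. It reached 1958, 2962 and 5604 CPM in PBS kidneys, where the mean was 3466 ± 1284 CPM (SD, n = 11) against 349.8 ± 56.0 CPM (SD, n = 12). The increase was 3.31 ± 0.20 on the log2 scale (SE, edgeR adjusted p = 1.89e-17). As for *Lcn2*, the upper 5 PBS mice, at 4134 CPM and above, stood off from the other 6, which were at 2962 CPM or below.

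*Spp1* (ENSMUSG00000029304.14, chr5:104435118-104441050, plus strand) was the most abundant of the 5 in every group. UNT kidneys held 1360, 1898 and 2738 CPM and PBS kidneys 7757, 12728 and 15770 CPM. The groups did not overlap, and the PBS kidneys varied least among the 5 markers, with a coefficient of variation of 19.5%. Its log2 fold change, 2.67 ± 0.13 (SE, edgeR adjusted p = 2.54e-20), was the smallest of the 5. An exon of *Spp1* overlaps the small annotated gene *Gm42793* on the same strand, so a part of its count is uncertain.

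*Vcam1* (ENSMUSG00000027962.14, chr3:116109949-116129688, minus strand) was at 20.7, 25.9 and 33.4 CPM in UNT kidneys and at 132, 232 and 276 CPM in PBS kidneys. The lowest PBS mouse was well above the highest UNT mouse. The means were 26.3 ± 4.32 CPM (SD, n = 12) and 217 ± 47.7 CPM (SD, n = 11), which differed by 3.05 ± 0.12 on the log2 scale (SE, edgeR adjusted p = 5.47e-22). Its exons overlap *Gm43109* on the opposite strand, and because the strand setting of the counting was not given, its count is also uncertain.

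Between genes, levels were compared per kilobase of exon. On this scale the UNT order was *Spp1* (1178 CPM per kb), *Clu* (102), *Vcam1* (2.96), *Lcn2* (1.34) and *Havcr1* (0.133), each a mean over 12 mice in CPM per kb. In PBS kidneys the order was *Spp1* (7502 CPM per kb), *Clu* (1009), *Lcn2* (404), *Havcr1* (85.2) and *Vcam1* (24.5), as means over 11 mice in the same unit. *Lcn2* and *Havcr1* thus moved from below *Vcam1* to above it. *Spp1* stayed on top in both groups.

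To ask what RGLS4326 changed, treated kidneys were compared with PBS-treated kidneys of the same genotype. No group here received a control oligonucleotide, so the blocking of miR-17 and other effects of an oligonucleotide cannot be told apart. The calls differed among the 5 markers. *Lcn2* fell 1.74-fold and *Clu* fell 1.64-fold, whereas *Havcr1*, *Spp1* and *Vcam1* did not pass the test. Over all genes tested, 15.2% were higher and 18.4% lower, against 2 of 5 markers lower and 0 higher. Only 0.0192% of genes were lower in every RGLS4326 kidney than in any PBS kidney, and none of the 5 markers was among them.

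*Lcn2* was at 290, 600.4 and 1062 CPM in RGLS4326 kidneys (lowest, median, highest), where PBS kidneys had 529, 986 and 1585 CPM. The ranges overlapped, but 10 of 11 treated mice were below the PBS mean, and the 5 high PBS kidneys at 1331 CPM and above had no counterpart among the treated. The mean was 611 ± 220 CPM (SD, n = 11). Against PBS the log2 fold change of *Lcn2* was -0.80 ± 0.19 (SE, 95% interval -1.19 to -0.40, edgeR adjusted p = 0.00499).

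*Clu* was at 1005, 2007 and 3652 CPM after RGLS4326, with a mean of 2112 ± 769 CPM (SD, n = 11). Here too 10 of 11 treated mice were below the PBS mean, and the groups overlapped. Its log2 fold change was -0.71 ± 0.19 (SE, 95% interval -1.09 to -0.34, edgeR adjusted p = 0.00661).

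*Havcr1* spread more widely after treatment, at 65.8, 208 and 279 CPM, with a coefficient of variation of 43.1% against 27.0% in PBS kidneys. Its 4 lowest treated mice lay at 117 CPM and below and the other 7 at 169 CPM and above, so the treated group covered the PBS range and reached below it. On the log2 scale it differed by -0.13 ± 0.19 (SE, edgeR adjusted p = 0.60), with a 95% interval from -0.51 to 0.25. *Spp1* was at 8848, 14297 and 18627 CPM, which differed from PBS by 0.17 ± 0.12 on the log2 scale (SE, edgeR adjusted p = 0.284) with a 95% interval from -0.08 to 0.42. *Vcam1* was at 115, 229 and 258 CPM, which differed by 0.01 ± 0.12 on the log2 scale (SE, edgeR adjusted p = 0.965) with a 95% interval from -0.23 to 0.25. For these 3 genes the intervals leave room for changes of up to about 1.43-fold down in *Havcr1*, 1.33-fold up in *Spp1* and 1.19-fold up in *Vcam1*.

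**Figure D2:**
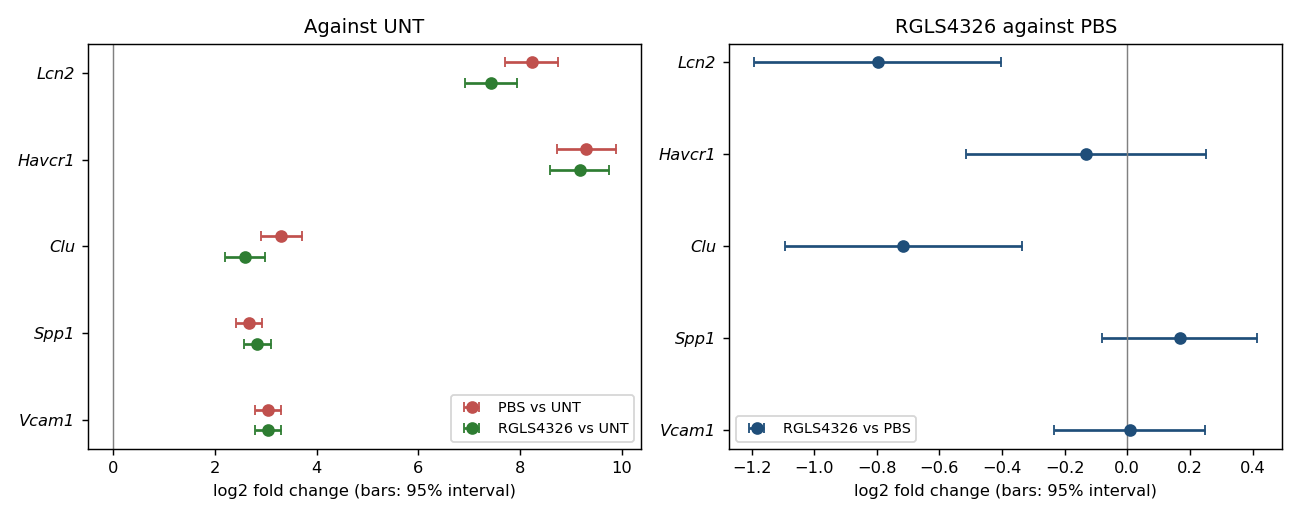
Log2 fold changes of the 5 markers with their 95% intervals (edgeR), PBS and RGLS4326 against UNT on the left and RGLS4326 against PBS on the right. On the right the intervals of *Lcn2* (-1.19 to -0.40) and *Clu* (-1.09 to -0.34) lie below 0 and those of *Havcr1*, *Spp1* and *Vcam1* include it.

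Whether the markers differed from each other in their response was tested on the log2 ratio of 2 markers in each mouse, by two-sided permutation tests adjusted over the 10 pairs, a test added after the individual calls were known. The ratio of *Lcn2* to *Spp1* was lower after RGLS4326 by 0.95 on the log2 scale (p = 0.00233, adjusted p = 0.00937), and all 11 treated mice were below the PBS mean. *Clu* to *Spp1* was lower by 0.88 (p = 0.00281, adjusted p = 0.00937, 11 of 11 mice), *Lcn2* to *Vcam1* by 0.80 (p = 0.00189, adjusted p = 0.00937, 11 of 11 mice) and *Clu* to *Vcam1* by 0.73 (p = 0.00489, adjusted p = 0.0122, 10 of 11 mice). The ratio of *Lcn2* to *Clu* differed by -0.07 (p = 0.356, adjusted p = 0.36). The ratios with *Havcr1* did not pass the threshold. That of *Lcn2* to *Havcr1* differed by -0.56 and that of *Havcr1* to *Spp1* by -0.39, both with an adjusted p of 0.0792.

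Within the library sets the decrease of *Lcn2* was of similar size. With each set fitted alone the log2 fold change was -0.76 in set 1, -0.92 in set 2 and -0.86 in set 3, with edgeR adjusted p of 0.169, 0.027 and 0.26. That of *Clu* was -0.59, -0.83 and -0.83, with edgeR adjusted p of 0.155, 0.109 and 0.26, so that with 3 or 4 mice per group the direction was kept in each set and the call was kept in 1 of these 6 fits. *Havcr1* gave 0.06, -0.14 and -0.32, *Spp1* gave 0.33, -0.03 and 0.23, and *Vcam1* gave 0.07, -0.29 and 0.28, and these 3 genes changed sign between sets. A test of whether the treatment difference itself varied among the sets called 0 of 15233 genes (0%) by edgeR at an adjusted p under 0.05, with 791 genes at an unadjusted p under 0.05, and the adjusted p of the 5 markers ran from 0.867 to 0.991.

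The share of reads outside genes averaged 6.75% in PBS and 8.80% in RGLS4326 kidneys. In RGLS4326 kidneys it correlated with *Lcn2* at r = -0.82 (n = 11, p = 0.00078, adjusted p = 0.0084) and rho = -0.85 (p = 0.00186, adjusted p = 0.0248), and r was -0.86 without the 2 mice farthest from the median share. In PBS kidneys r was -0.41 (n = 11, p = 0.208, adjusted p = 0.417). With this share as a covariate, the log2 fold change of *Lcn2* was -0.46 (edgeR adjusted p = 0.157) and that of *Clu* -0.39 (edgeR adjusted p = 0.22), and neither was called. Over all genes 93 calls were left of 5266 in that fit. These adjusted p-values of correlations are over the 80 relations described further on.

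**Figure D3:**
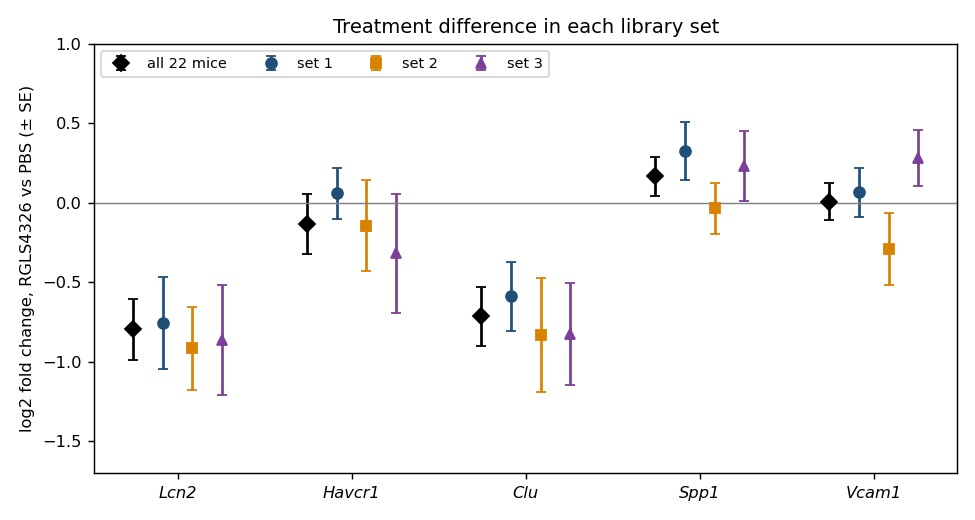
Log2 fold change of RGLS4326 against PBS (± SE, edgeR) over all 22 *Pkd2*-KO mice and in each library set fitted alone. *Lcn2* and *Clu* lie below 0 in every set, between -0.92 and -0.59, and *Havcr1*, *Spp1* and *Vcam1* lie on both sides of 0.

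Against UNT kidneys, RGLS4326-treated kidneys still had all 5 markers higher and without overlap. The log2 fold changes were 9.17 for *Havcr1*, 7.43 for *Lcn2*, 3.05 for *Vcam1*, 2.84 for *Spp1* and 2.59 for *Clu*, with SE from 0.12 to 0.29 and the largest edgeR adjusted p at 1.01e-14 for *Clu*. In this comparison 40.8% of all genes were higher and 36.9% lower, and 20.7% were higher in every treated kidney than in any UNT kidney. Each group enters 2 of these 3 comparisons, so the comparisons are not independent of each other. The level of *Lcn2* after treatment remained about 172-fold above UNT and that of *Clu* 6.04-fold above it. For *Lcn2* and *Clu* the order of the groups was UNT, RGLS4326, PBS, each step passing the test, while for *Havcr1*, *Spp1* and *Vcam1* only the steps from UNT did.

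Among mice of the same group, *Lcn2* and *Clu* varied together. Of 30 relations between pairs of markers within a group, Pearson's r of log2(CPM + 1) was 0.95 for *Lcn2* and *Clu* in PBS kidneys (n = 11, permutation p = 7.00e-05, adjusted p = 0.0018), with Spearman's rho of 0.90 (p = 0.00041, adjusted p = 0.0123). It was 0.95 in RGLS4326 kidneys (n = 11, permutation p = 0.00012, adjusted p = 0.0018), with rho of 0.78 (p = 0.00651, adjusted p = 0.0651). Without the 2 mice farthest from the median of *Lcn2*, r was 0.95 in PBS and 0.82 in RGLS4326 kidneys. In UNT kidneys r was -0.11 (n = 12, p = 0.729, adjusted p = 0.799). A plot of *Clu* against *Lcn2* shows the treated mice along the lower part of the same line as the PBS mice.

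The other pairs differed from this. *Havcr1* and *Spp1* varied together in RGLS4326 kidneys, at r = 0.89 (n = 11, p = 0.00034, adjusted p = 0.0034) and rho = 0.81 (p = 0.00403, adjusted p = 0.0604), and r was 0.80 without the 2 mice farthest from the median and 0.86 when centred on library set. In PBS kidneys the same pair gave r = 0.45 (n = 11, p = 0.165, adjusted p = 0.309). *Clu* and *Spp1* gave r = 0.79 in RGLS4326 kidneys (n = 11, p = 0.00337, adjusted p = 0.0253), with rho = 0.64 (p = 0.0412, adjusted p = 0.177). That relation rested on RGLS4326 mice 6 and 11, since r was 0.41 without them; centred on library set, with all 11 mice, it was 0.81.

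*Lcn2* and *Spp1* gave r of opposite sign in the 2 *Pkd2*-KO groups. It was -0.67 in PBS kidneys (n = 11, p = 0.0203, adjusted p = 0.0762) and 0.71 in RGLS4326 kidneys (n = 11, p = 0.0147, adjusted p = 0.0629), and neither passed the threshold after adjustment. Centred on library set, both passed it, at r = -0.78 (n = 11, permutation adjusted p = 0.0212) and 0.77 (n = 11, permutation adjusted p = 0.0241). In RGLS4326 kidneys r was 0.13 without mice 6 and 11, while in PBS kidneys it was -0.73 without the 2 mice farthest from the median. The difference between the groups was not tested. PBS mouse 11 showed the contrast plainly, with 1517 CPM of *Lcn2*, the second highest of its group, and 7757 CPM of *Spp1*, the lowest.

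RGLS4326 mice 6 and 11 stood apart from the other treated mice. Mouse 11 was lowest of its group in *Lcn2* (290 CPM), *Havcr1* (65.8 CPM), *Clu* (1005 CPM) and *Spp1* (8848 CPM), and mouse 6 was lowest in *Vcam1* (115 CPM) and next to lowest in *Lcn2* (308 CPM), *Clu* (1036 CPM) and *Spp1* (9827 CPM). RGLS4326 mouse 4 was highest in *Lcn2*, *Clu* and *Spp1*. With mice 6 and 11 both left out, *Lcn2* was still lower, at -0.64 on the log2 scale (edgeR adjusted p = 0.0213), and so was *Clu*, with -0.56 (edgeR adjusted p = 0.0282). The other 3 markers again did not pass the test, with *Havcr1* at 0.04, *Spp1* at 0.27 and *Vcam1* at 0.11.

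**Figure D4:**
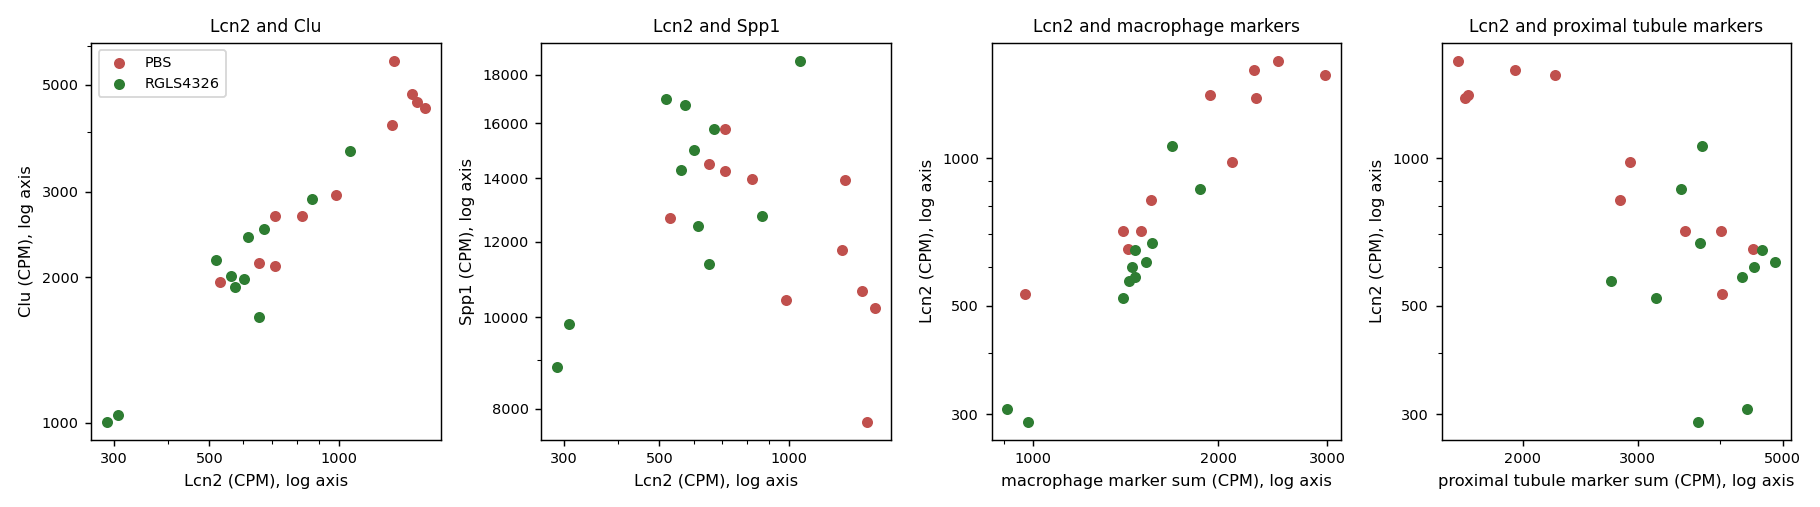
Each point is 1 *Pkd2*-KO kidney (PBS or RGLS4326, 11 each), in CPM on log axes: *Clu* and *Spp1* against *Lcn2*, and *Lcn2* against the summed level of macrophage and of proximal tubule marker genes. *Lcn2* and *Clu* rise together in both groups (r = 0.95 in each), *Lcn2* rises with the macrophage sum in both, and its r with the proximal tubule sum is -0.93 in PBS and -0.06 in RGLS4326 kidneys (-0.93 and -0.48 when centred on library set, which is not drawn).

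Cell composition was followed by summed levels of marker genes. Macrophage markers (8 genes, among them *Lyz2* for lysozyme and *C1qa* for complement C1q) summed to 113 to 192 CPM in UNT, 971 to 2977 CPM in PBS and 910 to 1869 CPM in RGLS4326 kidneys. All 8 rose in PBS against UNT, and 5 of 8 fell after RGLS4326, among them *Cd68*, a lysosomal protein of phagocytes, at -0.80 on the log2 scale (edgeR adjusted p = 0.00269) and *C1qb* with -0.61 (edgeR adjusted p = 0.00712), while *Emr1*, which encodes F4/80, was at 0.07 (edgeR adjusted p = 0.656). Over all genes 43.1% were higher in PBS against UNT and 18.4% lower after RGLS4326, and with the share of reads outside genes as a covariate 0 of these 8 were called after RGLS4326. Proximal tubule markers (8 genes) summed to 12636 to 16973 CPM in UNT, 1591 to 4502 CPM in PBS and 2735 to 4868 CPM in RGLS4326 kidneys. All 8 fell in PBS against UNT (38.9% of all genes), and 5 of 8 rose after RGLS4326, among them the glucose transporter gene *Slc5a2* by 0.61 (edgeR adjusted p = 0.00159) and the lactate transporter gene *Slc5a12* by 0.90 (edgeR adjusted p = 0.00414). With the covariate 1 of these 8 was called higher, and over all genes 15.2% were higher without it.

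These sums were compared with the 5 markers mouse by mouse in PBS and RGLS4326 kidneys, together with the share of reads outside genes, in 80 relations added after the levels were known. *Lcn2* followed the macrophage sum at r = 0.94 in PBS (n = 11, p = 5.00e-05, adjusted p = 0.0034) with rho = 0.91 (p = 0.00032, adjusted p = 0.00853), and at r = 0.95 in RGLS4326 kidneys (n = 11, p = 0.00023, adjusted p = 0.00368) with rho = 0.96 (adjusted p = 0.0008). Without the 2 mice farthest from the median sum, r was 0.94 and 0.85. *Clu* gave r = 0.85 (n = 11, p = 0.00122, adjusted p = 0.0108) and 0.93 (n = 11, p = 0.00031, adjusted p = 0.00413), with rho of 0.84 (p = 0.00224, adjusted p = 0.0256) and 0.80 (p = 0.00475, adjusted p = 0.0422), and 0.82 and 0.77 without the 2 farthest mice. Centred on library set, r was 0.93 and 0.94 for *Lcn2* and 0.84 and 0.94 for *Clu*.

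The proximal tubule sum ran against both genes in PBS kidneys, with r = -0.93 for *Lcn2* (n = 11, p = 0.00017, adjusted p = 0.0034, rho = -0.90, p = 0.00029, adjusted p = 0.00853) and -0.94 for *Clu* (n = 11, p = 0.00014, adjusted p = 0.0034, rho = -0.82, p = 0.00322, adjusted p = 0.0322). Without the 2 mice farthest from the median sum these r were -0.92 and -0.96, and centred on library set they were -0.93 and -0.94. In RGLS4326 kidneys they were -0.06 (n = 11, p = 0.85, adjusted p = 0.883) and -0.19 (n = 11, p = 0.579, adjusted p = 0.712), but centred on library set they were -0.48 and -0.58 (n = 11, permutation adjusted p = 0.274 and 0.174), of the same sign as in PBS kidneys and not past the threshold. Markers of the thick ascending limb (*Umod*, *Slc12a1*, *Kcnj1* and *Cldn16*), the segment that makes uromodulin, gave r = -0.93 with *Lcn2* (n = 11, p = 0.00017, adjusted p = 0.0034, rho = -0.85, p = 0.0014, adjusted p = 0.0224) and -0.90 with *Clu* (n = 11, p = 0.00084, adjusted p = 0.0084, rho = -0.88, p = 0.00069, adjusted p = 0.0138) in PBS kidneys, and -0.96 and -0.92 without the 2 farthest mice, or -0.94 and -0.91 when centred on library set. In RGLS4326 kidneys these r were 0.51 and 0.44, with adjusted p of 0.244 and 0.381, and 0.35 and 0.26 when centred on library set. Sums of this segment were 6145 to 9799 CPM in UNT, 2409 to 4630 CPM in PBS and 3588 to 5139 CPM in RGLS4326 kidneys, and 1 of the 4 genes rose and 3 fell in PBS against UNT (43.1% and 38.9% of all genes), with 2 higher and 1 lower after RGLS4326 (15.2% and 18.4% of all genes). Most of the thick ascending limb sum was *Umod*, with a mean of 2904 CPM in PBS kidneys beside a mean sum of 3563 CPM. Its relations are therefore weighted to that gene. Whether the PBS and RGLS4326 relations differ was not tested. Levels within a library are shares of 1 total, so sums of abundant genes and the markers share that total. The part of macrophages or of tubule cells in the decrease of *Lcn2* and *Clu* was not tested.

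*Havcr1*, *Spp1* and *Vcam1* had none of their 48 relations with these sums or the share of reads outside genes past the threshold for r, although *Spp1* with the macrophage sum in RGLS4326 kidneys passed it when centred on library set (r = 0.78, n = 11, permutation adjusted p = 0.0327). Uncentred, that r was 0.69 and rho 0.37, and r was -0.08 without RGLS4326 mice 6 and 11, so the relation rested on those mice. In PBS kidneys it was -0.63, and -0.67 when centred. For *Havcr1* the relation with the proximal tubule sum was r = -0.24 in PBS and -0.29 in RGLS4326 kidneys, and -0.32 and -0.56 when centred on library set. The other relation past the threshold was with endothelial markers (*Pecam1*, *Cdh5*, *Kdr*, *Emcn*, *Tek*, *Tie1*), which summed to 499.6 to 619 CPM in UNT, 370.5 to 551 CPM in PBS and 482 to 593 CPM in RGLS4326 kidneys. Of these 6 genes 2 rose and 4 fell in PBS against UNT (43.1% and 38.9% of all genes), and 5 rose after RGLS4326 (15.2% of all genes). The relation was r = -0.78 with *Lcn2* in PBS (n = 11, p = 0.00404, adjusted p = 0.0323, rho = -0.76, adjusted p = 0.0703) and r = 0.74 in RGLS4326 kidneys (n = 11, p = 0.0057, adjusted p = 0.0415, rho = 0.68, adjusted p = 0.11). Without the 2 farthest mice these r were -0.81 and 0.76, and with values centred on library set -0.81 (adjusted p = 0.0186) and 0.71 (permutation, n = 11, adjusted p = 0.059), the second no longer past the threshold.

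Markers of neutrophils, the cells lipocalin 2 was first found in, were low. The 8 genes summed to 0.988 to 5.56 CPM in UNT, 4.07 to 27.8 CPM in PBS and 3.49 to 8.70 CPM in RGLS4326 kidneys, and only 4 of the 8 passed the filter on low counts. Those 4 rose in PBS against UNT, where 43.1% of all genes did. After RGLS4326 1 of the 4 fell, *Ltf*, lactoferrin, by 1.87 on the log2 scale (edgeR adjusted p = 0.00128). The other 3 did not pass the test, and 18.4% of all genes were lower. In PBS kidneys the most abundant were *S100a9*, at 4.77 CPM on average and 15.1 CPM at most, and *S100a8*, at 3.24 CPM on average, which encode calprotectin. The granule genes of precursor cells, *Mpo* and *Elane*, averaged 0.0323 and 0.046 CPM. The neutrophil sum had an r with *Lcn2* of 0.75 in PBS (n = 11, permutation p = 0.0111, adjusted p = 0.0653) and 0.25 in RGLS4326 kidneys (n = 11, permutation p = 0.456, adjusted p = 0.676), and 0.74 and 0.40 when centred on library set, none past the threshold. The part of neutrophils in the level of *Lcn2* was not tested. T cell markers *Cd3d*, *Cd3e*, *Cd3g* and *Cd4* rose in PBS kidneys and fell after RGLS4326, 4 of the 8 lymphocyte markers in each case, beside 43.1% of all genes higher and 18.4% lower. Lymphocyte sums were 4.25 to 8.08 CPM in UNT, 11.1 to 34.7 CPM in PBS and 9.07 to 16.3 CPM in RGLS4326 kidneys.

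Collecting duct markers (6 genes) summed to 483 to 783 CPM in UNT, 690 to 2099 CPM in PBS and 417 to 1838 CPM in RGLS4326 kidneys. All 6 rose in PBS against UNT, among them *Aqp4*, a water channel, by 1.61 (edgeR adjusted p = 8.10e-12), and 3 fell after RGLS4326, of which the sodium channel subunit gene *Scnn1b*, at -0.46 (edgeR adjusted p = 0.00787), had the smallest adjusted p. The shares over all genes were 43.1% higher in PBS against UNT and 18.4% lower after RGLS4326. The r of this sum with *Lcn2* was 0.25 in PBS and 0.55 in RGLS4326 kidneys, neither past the threshold. With the share of reads outside genes as a covariate in RGLS4326 against PBS, 0 genes of the collecting duct, thick ascending limb, lymphocyte and neutrophil lists were called, and 2 of the 6 endothelial markers were called higher.

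The 5 markers were then set beside 23 other genes used as markers of kidney injury. Of the 22 that passed the filter, 21 rose and 1 fell in PBS against UNT kidneys (43.1% and 38.9% of all genes), with a median log2 fold change of 2.31 against 0.04 over all genes. By adjusted p the leading ones were *Dcdc2a*, at 3.38 (edgeR adjusted p = 1.81e-25), *Vim*, the intermediate filament of dedifferentiated cells, at 2.24 (2.18e-23), *Timp2*, an inhibitor of metalloproteinases, at 2.38 (5.48e-22) and *Ccl2*, a chemokine that draws monocytes, at 5.41 (3.34e-21), each with its edgeR adjusted p in parentheses. *Fabp1*, a fatty acid carrier at 1.42 CPM in UNT, fell by 1.0 on the log2 scale (edgeR adjusted p = 0.00974). *Tff3* was at 0 in all 11 PBS libraries and was not tested.

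After RGLS4326, 10 of the 22 fell, 1 rose and 11 did not pass the test, with a median log2 fold change of -0.19 against 0.00 over all genes, of which 18.4% were lower and 15.2% higher. With the share of reads outside genes as a covariate, 0 of the 22 were called in either direction, and that share averaged 6.75% in PBS and 8.80% in RGLS4326 kidneys. Those that fell included the epithelial keratin genes *Krt18*, from 422 ± 138 to 247 ± 59.3 CPM (SD, n = 11 each, log2 fold change -0.77, edgeR adjusted p = 0.00117), and *Krt8*, at -0.60 (edgeR adjusted p = 0.00233). *Lgals3*, galectin 3, was at -0.61 (edgeR adjusted p = 0.00185) and *Anxa2*, a membrane-binding annexin, at -0.52 (edgeR adjusted p = 0.00169). *Sema5a* rose by 0.36 (edgeR adjusted p = 0.019). Like *Havcr1*, *Spp1* and *Vcam1*, several strongly raised markers did not pass the test, among them *Krt20* at -0.02, *Dcdc2a* at -0.02 and *Ccl2* at -0.07. Against UNT, 21 of the 22 remained higher after treatment and 1 lower.

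Injury markers that are lost with healthy tubule went the other way. *Egf*, a growth factor made in the distal tubule, was at 3032 ± 782 CPM (SD, n = 12) in UNT and 140.1 ± 117 CPM (SD, n = 11) in PBS kidneys. *Kl*, klotho, fell by 2.35 and *Umod*, uromodulin, by 0.79 on the log2 scale (edgeR adjusted p = 1.59e-18 and 2.25e-08). All 3 fell in PBS against UNT (38.9% of all genes) and all 3 rose after RGLS4326, *Egf* by 1.09 (edgeR adjusted p = 0.0143), *Kl* by 0.43 (edgeR adjusted p = 0.0103) and *Umod* by 0.31 (edgeR adjusted p = 0.0275), where 15.2% of all genes were higher. With the share of reads outside genes as a covariate, and in each library set alone, 0 of these 3 increases were called. They stayed below UNT after treatment.

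**Figure D5:**
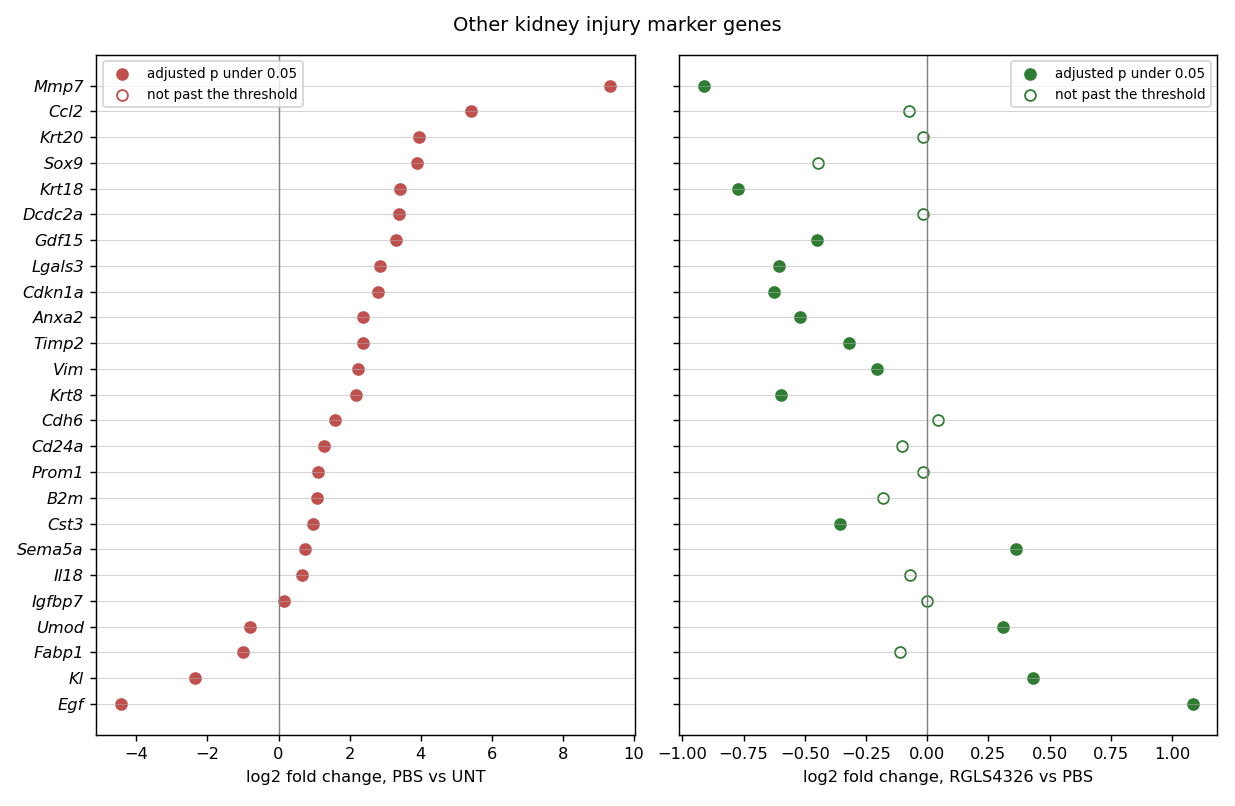
Log2 fold change (edgeR) of 25 other tested kidney injury marker genes in PBS against UNT (left) and in RGLS4326 against PBS (right); filled points have an adjusted p under 0.05. On the left 21 genes are higher and 4 lower, and on the right 10 are lower and 4 higher with 11 not past the threshold.

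The partners and regulators of each marker were described next, starting with *Lcn2*. Of 10 genes that regulate *Lcn2*, 9 rose and 1 fell in PBS against UNT kidneys, and after RGLS4326 1 fell and 9 did not pass the test. Among all genes 43.1% were higher and 38.9% lower in the first comparison, and 15.2% higher and 18.4% lower in the second, so that the 1 of 10 that fell after RGLS4326 was a smaller share than among all genes. *Stat3*, a transcription factor downstream of interleukin 6, rose by 1.57 (edgeR adjusted p = 7.99e-22) and *Nfkb1*, an NF-kB subunit, by 1.25 (edgeR adjusted p = 5.46e-21), and neither passed the test after treatment, at -0.08 and -0.07. *Rela*, the other NF-kB subunit listed, rose by 1.23 and fell after RGLS4326 by 0.32 (edgeR adjusted p = 0.00541). *Tnf* was raised by 4.45 (edgeR adjusted p = 6.15e-18) at levels of 2.83 ± 1.02 CPM in PBS kidneys (SD, n = 11), and *Il17ra*, an interleukin 17 receptor, fell by 0.22 (edgeR adjusted p = 0.000649). *Nfkbiz*, which encodes the co-activator IκBζ, rose by 0.76 in PBS kidneys and was at 46.5 ± 22.1 CPM after RGLS4326 against 34.7 ± 10.8 CPM (SD, n = 11 each), at an edgeR adjusted p of 0.0927.

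Because C/EBP factors are among these regulators, the *Lcn2* promoter is shown, 300 bases from RefSeq (GRCm38.p6, chr2:32387690-32387989, minus strand) that run from 250 bases before the start to 50 after it. Capitals mark the match to the C/EBP motif TTGCNNAA, searched on both strands, which begins 216 bases before the start.

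Lcn2 promoter: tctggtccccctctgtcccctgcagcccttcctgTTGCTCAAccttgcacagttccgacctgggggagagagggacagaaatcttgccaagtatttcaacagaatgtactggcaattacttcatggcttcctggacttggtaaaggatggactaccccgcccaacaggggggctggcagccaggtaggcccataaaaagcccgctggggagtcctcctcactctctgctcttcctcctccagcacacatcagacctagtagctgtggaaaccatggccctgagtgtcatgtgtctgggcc

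This motif was in 10.8% of 27025 promoters of the same length, and the AP-1, STAT, NF-kB and TATA box motifs, which were in 7.93%, 8.47%, 8.18% and 14.2% of promoters, had no match in this window. The AP-1 motif searched was TGANTCA. For STAT the letters were TTCNNNGAA. The TATA box was searched as TATAAA. *Cebpb* rose by 0.52 (edgeR adjusted p = 0.000339) and *Cebpd* by 1.06 (edgeR adjusted p = 1.49e-06) in PBS against UNT kidneys, and after RGLS4326 they were at -0.29 and -0.30 and did not pass the test. *Lcn2* enters cells through megalin, encoded by *Lrp2*, which fell by 2.59 in PBS kidneys (edgeR adjusted p = 5.27e-15) and rose by 0.64 after RGLS4326 (edgeR adjusted p = 0.00967). Its other receptor gene, *Slc22a17*, fell by 0.44 (edgeR adjusted p = 0.000115) and was at -0.05 after treatment. *Mmp9*, whose protein forms a complex with lipocalin 2, rose by 0.82 and fell after RGLS4326 by 0.63 (edgeR adjusted p = 0.0349).

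For *Havcr1*, 7 relatives and genes of phosphatidylserine-dependent uptake were listed, of which 5 rose, 1 fell and 1 did not pass the test in PBS against UNT kidneys (all genes, 43.1% higher and 38.9% lower). *Axl*, a receptor for dead cells bound through *Gas6*, rose by 1.79 (edgeR adjusted p = 7.33e-23), *Havcr2*, which encodes TIM-3, by 3.02 (edgeR adjusted p = 4.89e-16) and *Timd2* by 2.26 (edgeR adjusted p = 1.19e-11). *Mertk*, a second such receptor, fell by 1.17 (edgeR adjusted p = 1.17e-14). After RGLS4326 *Mertk* rose by 0.46 (edgeR adjusted p = 0.0013), 2 genes fell, of which *Mfge8*, a bridging protein, changed by -0.25 (edgeR adjusted p = 0.0374), and 4 did not pass the test (all genes, 15.2% higher and 18.4% lower). *Axl* was at -0.03 and *Havcr2* at -0.18 in this comparison.

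For *Clu*, the 4 receptors for clusterin divided evenly, with 43.1% of all genes higher and 38.9% lower. In PBS against UNT kidneys *Lrp2* and *Vldlr*, at -0.73 (edgeR adjusted p = 7.73e-10), fell, and *Lrp8*, at 1.77 (edgeR adjusted p = 1.25e-14), and *Trem2*, a receptor of macrophages, at 4.99 (edgeR adjusted p = 2.62e-21), rose. After RGLS4326 both genes that had fallen rose, *Vldlr* by 0.38 (edgeR adjusted p = 0.00327), and *Trem2* fell by 0.67 (edgeR adjusted p = 0.00697) from 16.3 ± 6.16 to 10.2 ± 1.93 CPM (SD, n = 11 each). *Lrp8* was at -0.17 (edgeR adjusted p = 0.309). Of all genes 15.2% were higher and 18.4% lower after RGLS4326.

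All 6 receptor genes for osteopontin rose in PBS against UNT kidneys, as did 43.1% of all genes. *Cd44* rose by 4.08 (edgeR adjusted p = 7.49e-25), from 3.26 ± 0.649 CPM (SD, n = 12) to 55.4 ± 10.9 CPM (SD, n = 11), and the integrin genes *Itgb5* and *Itgb1* by 1.30 and 1.0 (edgeR adjusted p = 3.13e-16 and 4.95e-16). After RGLS4326 *Itga9* rose by 0.29 (edgeR adjusted p = 0.0335), *Itgb5* fell by 0.26 (edgeR adjusted p = 0.02) and 4 did not pass the test, *Cd44* among them at -0.12, where 15.2% of all genes were higher and 18.4% lower.

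The receptors of VCAM-1 and related adhesion genes numbered 8, of which 7 rose and 1 fell in PBS against UNT kidneys, beside 43.1% and 38.9% of all genes. *Icam1*, which also tethers leukocytes, rose by 2.57 (edgeR adjusted p = 2.72e-24) and *Selp*, P-selectin, by 5.22 (edgeR adjusted p = 5.79e-23), while *Icam2*, which endothelium carries at rest, fell by 0.43 (edgeR adjusted p = 2.32e-05). After RGLS4326 *Itga4*, the integrin subunit that binds VCAM-1, rose by 0.41 (edgeR adjusted p = 0.00987) and *Itga9* rose as given above. *Selp* fell by 0.45 (edgeR adjusted p = 0.026), and *Icam1*, like *Vcam1*, did not pass the test, at -0.08 (edgeR adjusted p = 0.448). These 2 higher and 1 lower of 8 stand beside 15.2% and 18.4% of all genes.

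Over all 61 listed injury, partner and regulator genes, of which 60 were tested, 49 rose and 10 fell in PBS against UNT kidneys, where 43.1% of all genes were higher and 38.9% lower. After RGLS4326 9 rose and 17 fell, where 15.2% of all genes were higher and 18.4% lower, so the listed genes that rose were no larger a share than among all genes. With the share of reads outside genes as a covariate, 1 was called higher and 0 lower. Against UNT, 47 were higher and 10 lower in treated kidneys.

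Finally, the genes whose levels followed each marker most closely over the 22 *Pkd2*-KO mice were identified by Pearson's r of log2(CPM + 1) after the mean of each group was subtracted, as a description with no test among 15643 genes. *Lcn2* was followed by *Cnp* (r = 0.96), *1700017B05Rik* (0.96) and *Golm1*, a Golgi membrane protein gene (0.95). *Clu* was followed by *Anxa8*, an annexin (r = 0.97), by *Lcn2* itself (0.95) and by *Gusb*, a lysosomal enzyme (0.94). *Vcam1* was followed by the osteopontin receptor gene *Cd44* (r = 0.91), *Nlrp10* (0.84) and the complement gene *C3* (0.79). The nearest genes of *Havcr1* were *Cyp4a12b* (r = 0.83), *Car13* (0.78) and *Ddx52* (0.78), and those of *Spp1* were *Adss* (0.84), the fibrinogen chain gene *Fgb* (0.82) and *1300002K09Rik* (0.79). *Lcn2* and *Clu* thus had neighbours at higher r than the other 3 markers had.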

How the data were processed

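The authors prepared stranded mRNA libraries, sequenced paired ends, trimmed reads with Trim Galore, mapped them with STAR to GRCm38 (mm10) and counted uniquely mapped reads per gene with HTSeq (version 0.6.1 in the submitters' processing notes). The deposited values are raw counts, 1 table per mouse; the annotation and strand setting are not given in the sources used here. Counts were scaled by TMM, filtered with filterByExpr and entered edgeR's quasi-likelihood test (version 4.0.16 under R 4.3.3) in 1 fit of all 34 libraries with 3 groups and no covariate, with Benjamini-Hochberg adjustment over 15644 genes and a threshold of 0.05, after a check on simulated data. CPM are TMM-scaled. Permutation tests used 100000 resamples, two-sided, with a pseudocount of 1. The members and gene lists were chosen with earlier results of these data known. From each list the genes with the smallest adjusted p per direction were named, besides genes at 0 and, after their values were seen, genes that did not pass the test and genes set beside a member. Labels give 1 library per mouse, and same-numbered mice of different groups were not treated as pairs. Alternatives were other scaling, DESeq2 (version 1.42.0), no filter, 2-group fits, library set, share of reads outside genes, a Y-linked gene, replicate block and leaving out each mouse. Python 3.11.15 with scipy 1.17.1 and matplotlib 3.10.9 was used.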

Additional observations from a re-analysis of the deposited data

How the results depend on the processing

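The 5 increases in PBS against UNT and in RGLS4326 against UNT kept their direction and call under every alternative run. In RGLS4326 against PBS, the decreases of *Lcn2* and *Clu* kept their direction throughout and their call with each mouse left out in turn (*Lcn2* -0.91 to -0.72, *Clu* -0.82 to -0.62), but not with the share of reads outside genes as a covariate (*Lcn2* -0.46, *Clu* -0.39), in library set 1 alone (-0.76 and -0.59), in set 3 alone (-0.86 and -0.83) or, for *Clu*, in set 2 alone (-0.83). The sets alone hold fewer mice. The cause for the covariate was not tested. Uncalled values changed sign: *Havcr1* was 0.059 in set 1 alone and 0.040 without RGLS4326 mice 6 and 11, *Spp1* was -0.034 and *Vcam1* -0.29 in set 2 alone, and *Vcam1* ran from -0.048 to 0.075 with each mouse left out.

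With values centred on library set, r became -0.75 for *Havcr1* and *Vcam1* in UNT, -0.78 for *Lcn2* and *Spp1* in PBS, 0.77 for *Lcn2* and *Spp1* in RGLS4326 and 0.79 for *Havcr1* and *Clu* in RGLS4326, all past the threshold. Uncalled r changed sign to -0.11 for *Havcr1* and *Clu* and 0.039 for *Clu* and *Spp1* in UNT, and to -0.19 for *Havcr1* and *Vcam1* and -0.52 for *Spp1* and *Vcam1* in PBS. With the sums and shares, uncalled r changed sign to 0.21 (*Havcr1*) and 0.51 (*Vcam1*) with lymphocytes in PBS, -0.13 for *Vcam1* with collecting duct in RGLS4326, and -0.15 (*Havcr1*) and -0.17 (*Spp1*) with the share of reads outside genes in PBS. *Lcn2* with endothelium in RGLS4326 (0.71) no longer passed the threshold. *Lcn2* with lymphocytes in PBS (0.75) newly did. The ratios *Lcn2* to *Havcr1* (-0.59) and *Havcr1* to *Clu* (0.51) passed the threshold when centred.

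Same-numbered mice of PBS and RGLS4326 share only a number: their deviations from the group means correlated at -0.24 to 0.45 over 11 pairs, and 1 of the 11 was best matched by its own number. With the replicate block, the ratios *Havcr1* to *Clu* (0.48) and *Havcr1* to *Spp1* (-0.39) passed the threshold, *Lcn2* was at -0.80 and *Clu* at -0.72, both still called, and 5089 genes were called in the treatment comparison against 5266. That count was 32, 4081 and 0 in sets 1, 2 and 3 alone, 93 with the share covariate and 4440 with only the 2 groups. Of the listed genes called lower in PBS against UNT, 10 became 6 in set 3 alone, and in RGLS4326 against UNT 10 became 5. In RGLS4326 against PBS the 9 higher became 0, 2 and 0 in sets 1, 2 and 3 and 1 with the covariate, and the 17 lower became 0 in sets 1 and 3 and 0 with the covariate.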
